A study of Mus musculus with 44 samples.

Results

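The effect of a vitamin E-enriched diet was described in the livers of mice that had just completed a treadmill run. Of the 44 arrays of the series, 24 belonged to this comparison and were chosen by their group labels, 12 from exercised vitamin E mice and 12 from exercised control mice. Both groups were male C57BL/6N mice aged 11 to 12 weeks that had run once for 60 min at 13 m/min on a 14° slope, without access to food during the run, after 4 weeks on their diet. The diet of the exercised vitamin E mice supplied vitamin E at 2000 IU/kg together with vitamin C at 100 mg/kg, and that of the exercised control mice vitamin E at 149 IU/kg and added vitamin C at 0 mg/kg, so that effects of the 2 vitamins cannot be told apart. Another 10 sedentary vitamin E mice and 10 sedentary control mice ate the same diets and went without food for the same 60 min. Livers were taken directly after the run, so the arrays show 1 early time point, and each array held the liver RNA of 1 mouse. A difference therefore reflects the spread between mice, and in whole liver fewer cells of a type and less RNA per cell cannot be told apart.

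Vitamin E, of which α-tocopherol is the main form in liver, arrives in lipoprotein remnants, is bound by the tocopherol transfer protein encoded by Ttpa and is passed back to plasma lipoproteins. Excess tocopherol is shortened after ω-hydroxylation, a step that Cyp4f14 carries out in mice, and leaves with bile or urine. Lipid synthesis in hepatocytes is governed by the SREBP transcription factors, which are released from the endoplasmic reticulum when sterols are scarce and which switch on the enzymes of cholesterol synthesis and, with insulin and the carbohydrate sensor ChREBP, those of fatty acid synthesis. Fasting and exercise lower insulin and raise glucagon and catecholamines, and lipogenic transcripts normally decline with them.

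Expression was measured on Affymetrix Mouse Gene 2.1 ST arrays and is given as RMA values on the log2 scale, so that a difference of 1 is a doubling. Differences are exercised vitamin E minus exercised control, with the standard error (SE) and the two-sided p of limma, unadjusted unless it is called adjusted. The array medians of the exercised mice lay between 1.53 and 1.66, and the median SD of a probe set was 0.315 in exercised vitamin E mice and 0.331 in exercised control mice. Exercised control mice 3 and 6 stood apart from the rest. The mean correlation of mouse 3 with its group was 0.946 and that of mouse 6 was 0.949, against 0.956 to 0.961 for the other exercised mice, and results that rest on them are given with and without them. Albumin, a defining hepatocyte transcript, lay between 11.59 and 11.76 (median 11.66) in exercised vitamin E mice and between 11.37 and 11.80 (median 11.67) in exercised control mice, at the top of the scale in both groups (Alb).

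No probe set passed an adjusted p of 0.05 among the 18522 tested. The smallest p was 3.12e-05, with an adjusted p of 0.401, for Adar. At an unadjusted p under 0.05, 392 probe sets (2.12%) were higher and 646 (3.49%) lower in exercised vitamin E mice, a total of 1038 (5.6%) where 926.1 would be counted with no difference at all. Adding the threshold that the study's methods set, a fold of the group medians above 1.2, left 207 higher (1.12%) and 397 lower (2.14%), or 0.888% and 1.69% of the genes with 1 symbol. Called probe sets were thus lower more often than higher, with 37.8% of them higher, but this split depended on the scaling: after quantile normalization of the arrays 530 were higher and 513 lower (50.8% higher). The median difference over all 10921 genes was -0.01, with 45.8% of genes above and 54.2% below 0. Most differences were small, since 84.6% of probe sets lay within 0.25 of 0, and the 95% interval of a difference extended a median of 0.27 to either side.

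Among genes that the text of the study does not name, the 15 with the smallest p in each direction were followed, taken from 34 higher and 59 lower candidates that passed the methods' threshold and had a mean log2 value above 4. They were chosen on this contrast, so their differences are descriptions. The higher genes differed by 0.26 to 0.62 and the lower ones by -0.56 to -0.28, with adjusted p-values from 0.748 to 0.835, and none of the 30 separated the groups without overlap. The higher genes held steps of lipid, retinoid and vitamin E metabolism and pieces of the RNA-degrading exosome. The lower genes held regulators of pyruvate oxidation and transcription, proteins of the secretory pathway and transcripts of non-parenchymal cells.

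**Figure D1:**
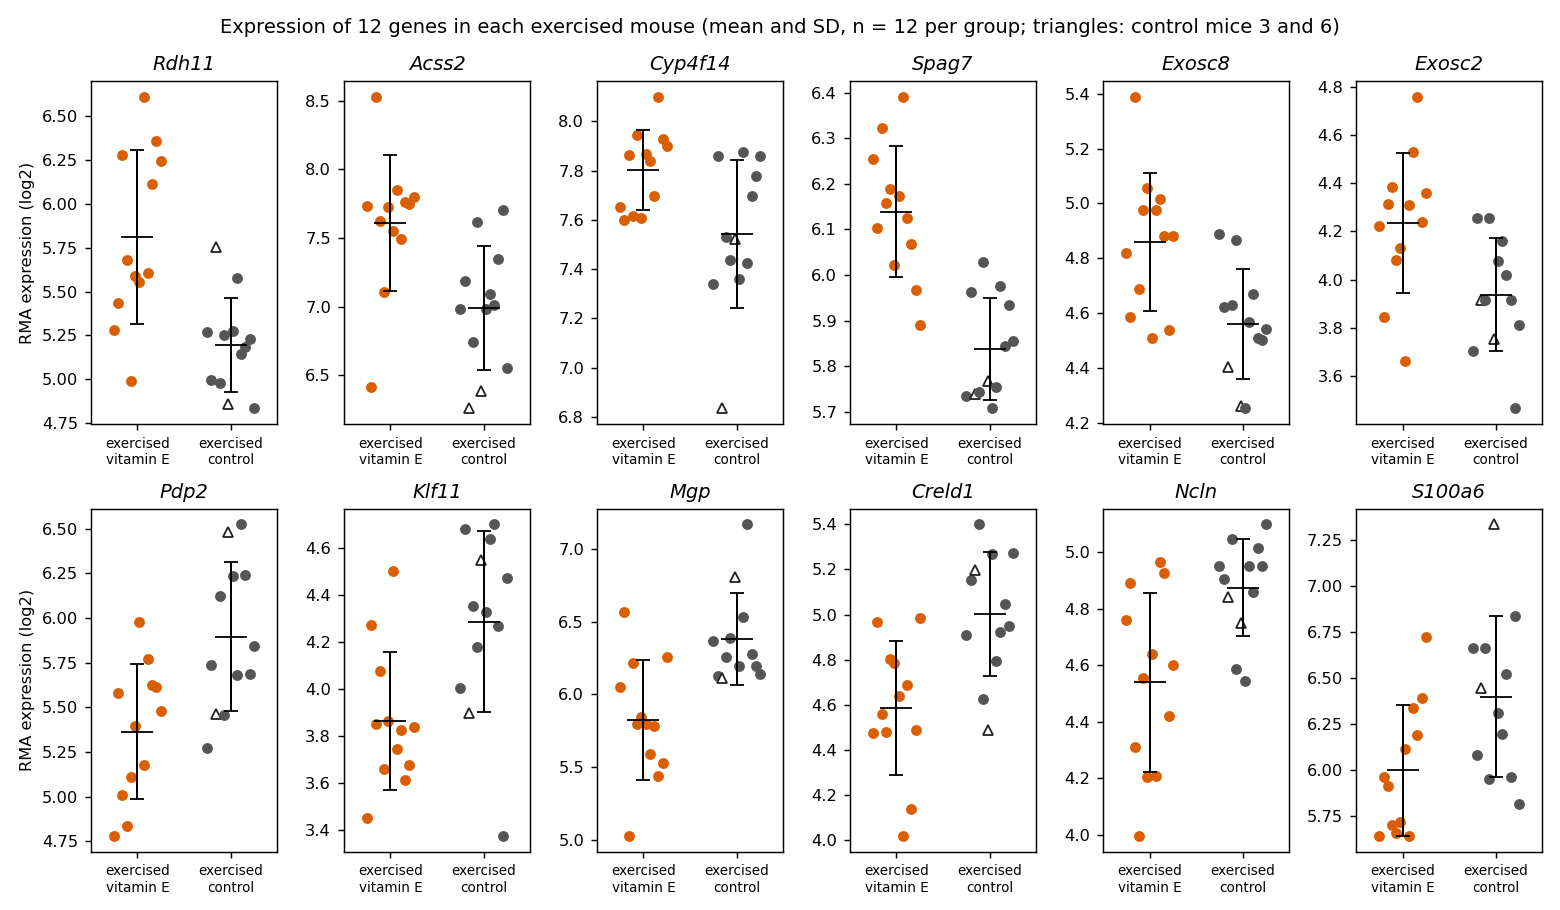
RMA expression (log2) of 12 of these genes in each exercised mouse, exercised vitamin E mice on the left of each panel and exercised control mice on the right, with the mean and SD of 12 mice as bars and triangles for exercised control mice 3 and 6. The groups overlap in every panel. Spag7 has 9 of the 12 exercised vitamin E mice above all exercised control mice, and Mgp has 9 of the 12 below all of them.

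Rdh11 and Acss2 had the largest differences among the higher genes. Rdh11, a retinal reductase that SREBP is known to induce, lay between 4.99 and 6.61 (median 5.64) in exercised vitamin E mice, against 4.83 and 5.75 (median 5.21) in exercised control mice. Of the exercised vitamin E mice 11 lay above the control median and 5 above every control mouse, a difference of 0.61 (SE 0.17, p = 0.000641) or 1.53-fold. Acss2, the cytosolic enzyme that turns acetate into acetyl-CoA, lay between 6.42 and 8.53 (median 7.73) in exercised vitamin E mice, against 6.26 and 7.70 (median 7.00) in exercised control mice. Here 7 exercised vitamin E mice exceeded all controls, and the difference was 0.62 (SE 0.19, p = 0.00184) or 1.54-fold. Without exercised control mice 3 and 6 the differences were 0.64 for Rdh11 and 0.49 for Acss2.

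Tm7sf2 and Dhcr7, both reductases of late cholesterol synthesis, were also among the 15 higher genes. Tm7sf2, which reduces a double bond of the sterol ring, ranged over 7.85 to 8.47 (median 8.32) in exercised vitamin E mice and over 7.17 to 8.36 (median 8.06) in exercised control mice. Of the exercised vitamin E mice 10 lay above the control median and 3 above every control, and the difference was 0.30 (SE 0.10, p = 0.00435), or 0.18 without exercised control mice 3 and 6. Dhcr7, which catalyses the step that yields cholesterol, ranged over 6.22 to 7.25 (median 6.77) in exercised vitamin E mice and over 5.81 to 7.24 (median 6.37) in exercised control mice. The groups overlapped over most of their range, with a difference of 0.34 (SE 0.13, p = 0.0145).

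The 17 tested enzymes of cholesterol synthesis were all above 0 in exercised vitamin E mice, where 45.8% of all genes were, with a median difference of 0.30 beside -0.01 over all genes, and 5 of them had an unadjusted p under 0.05, where 2.17% of all genes were higher by that rule. The 5 were Tm7sf2, Sc5d, the desaturase that precedes Dhcr7 (0.25), Fdps, which makes farnesyl diphosphate (0.58), Dhcr7 and Pmvk, a mevalonate pathway kinase (0.37). Hmgcs1, which makes the precursor of mevalonate, lay between 6.94 and 9.03 (median 7.73) in exercised vitamin E mice, against 6.40 and 8.85 (median 7.27) in exercised control mice, and its difference of 0.50 (p = 0.0571) did not pass. The oxidase Sqle, a control point late in the pathway, differed by 0.48 (p = 0.147) and likewise did not pass. Enzymes of 1 pathway share their control and are not independent of each other, so the count of 17 is a description. The median stayed at 0.28 without exercised control mice 3 and 6, again with 17 above 0. Without them Sc5d no longer passed (0.18, p = 0.0623) and Hmgcs1 did (0.58, p = 0.0243). The transcripts of the controllers themselves differed little, with 0.03 for Insig1, 0.08 for Scap, 0.07 for Srebf1 and -0.12 for Srebf2.

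Averaged over the 17 cholesterol synthesis genes, the exercised vitamin E mice lay between 6.49 and 7.68 (median 7.05), against 5.95 and 7.46 (median 6.86) in exercised control mice. Of the exercised vitamin E mice 7 lay above the control median and 4 above every control. The highest control was mouse 3 and the lowest was mouse 6, and the highest of the other controls reached 7.18. The other 8 exercised vitamin E mice lay within the range of the controls.

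The 21 tested genes of fatty acid and triglyceride synthesis were likewise all above 0, with a median of 0.21. At an unadjusted p under 0.05, 2.17% of all genes were higher, as were 8 of the 21. These were Acss2, Acaca and Acly, which supply and carboxylate acetyl-CoA (0.51 and 0.53), the elongase Elovl6 (0.57), malic enzyme Me1 (0.52), the lipogenic regulator Thrsp (0.31), liver pyruvate kinase Pklr (0.42) and the lipid droplet protein Pnpla3 (0.51). Fatty acid synthase, Fasn, lay between 6.33 and 9.72 (median 8.18) in exercised vitamin E mice, against 5.34 and 9.16 (median 7.72) in exercised control mice. The spread within each group was wide, and its difference of 0.59 (p = 0.105) did not pass. Scd1, the main hepatic desaturase and near the top of the scale, differed by 0.06 (p = 0.335), and the terminal enzyme Dgat2 by 0.01. Averaged over the 21 genes, exercised vitamin E mice lay between 7.41 and 8.76 (median 7.96) and exercised control mice between 7.22 and 8.04 (median 7.79). Of the exercised vitamin E mice 10 lay above the control median and 5 above every control. Leaving out exercised control mice 3 and 6 lowered the median to 0.16, with 21 genes still above 0 and 3 of them, Acss2, Acaca and Pnpla3, at an unadjusted p under 0.05. Several of these cholesterol and fatty acid genes are shown in the study's own panels, which were drawn from the same arrays, so their direction here is not independent evidence.

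Promoters of 3 of these genes are shown because the known binding letters of SREBP and its partners can be read in them. Each window holds 300 bases, 250 before and 50 after the transcription start, 5′ to 3′ on the gene's strand, from RefSeq on GRCm38.p6. Capitals mark matches on either strand to the sterol regulatory element TCACCCCAC, the E-box CACGTG, which is its own reverse complement, and the CCAAT box, whose reverse is ATTGG. Hmgcs1 lies on the plus strand (chr13:119690101-119690400), Sc5d on the minus strand (chr9:42264251-42264550) and Rdh11 on the minus strand (chr12:79190912-79191211, 1 of its 2 listed starts, chosen because it holds the motifs).
Hmgcs1: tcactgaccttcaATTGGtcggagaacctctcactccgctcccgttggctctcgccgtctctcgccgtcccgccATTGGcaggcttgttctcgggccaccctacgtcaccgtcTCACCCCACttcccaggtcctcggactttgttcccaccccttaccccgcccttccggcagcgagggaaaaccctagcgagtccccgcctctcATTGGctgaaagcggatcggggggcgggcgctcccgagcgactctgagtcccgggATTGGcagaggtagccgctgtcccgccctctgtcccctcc
Sc5d: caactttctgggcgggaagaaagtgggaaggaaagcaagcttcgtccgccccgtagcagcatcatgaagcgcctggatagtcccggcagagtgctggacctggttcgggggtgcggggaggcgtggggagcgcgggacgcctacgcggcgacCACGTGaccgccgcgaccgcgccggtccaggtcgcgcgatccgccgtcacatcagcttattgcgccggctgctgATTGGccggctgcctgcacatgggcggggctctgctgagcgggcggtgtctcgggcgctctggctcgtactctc
Rdh11: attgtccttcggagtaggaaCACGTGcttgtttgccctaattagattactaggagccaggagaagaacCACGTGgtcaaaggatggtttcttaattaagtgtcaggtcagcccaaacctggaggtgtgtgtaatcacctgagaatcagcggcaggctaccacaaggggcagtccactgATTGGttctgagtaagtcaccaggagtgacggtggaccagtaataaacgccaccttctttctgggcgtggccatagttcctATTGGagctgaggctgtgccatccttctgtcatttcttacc
The Hmgcs1 window held 1 sterol regulatory element and 4 CCAAT boxes, the Sc5d window 1 E-box and 1 CCAAT box, and the Rdh11 window 2 E-boxes and 2 CCAAT boxes. Over the 32851 promoter windows of the annotation, 0.551% held the sterol regulatory element, 7.15% the E-box and 37.4% the CCAAT box. Among the 8687 tested genes with a matched promoter the shares were 0.783%, 11.8% and 42.2%. Of the cholesterol synthesis genes 14 matched, and 1 held the sterol regulatory element, 3 the E-box and 14 the CCAAT box. Of the fatty acid genes 17 matched, and 0, 3 and 12 held them. A match of letters is not a binding site.

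**Figure D2:**
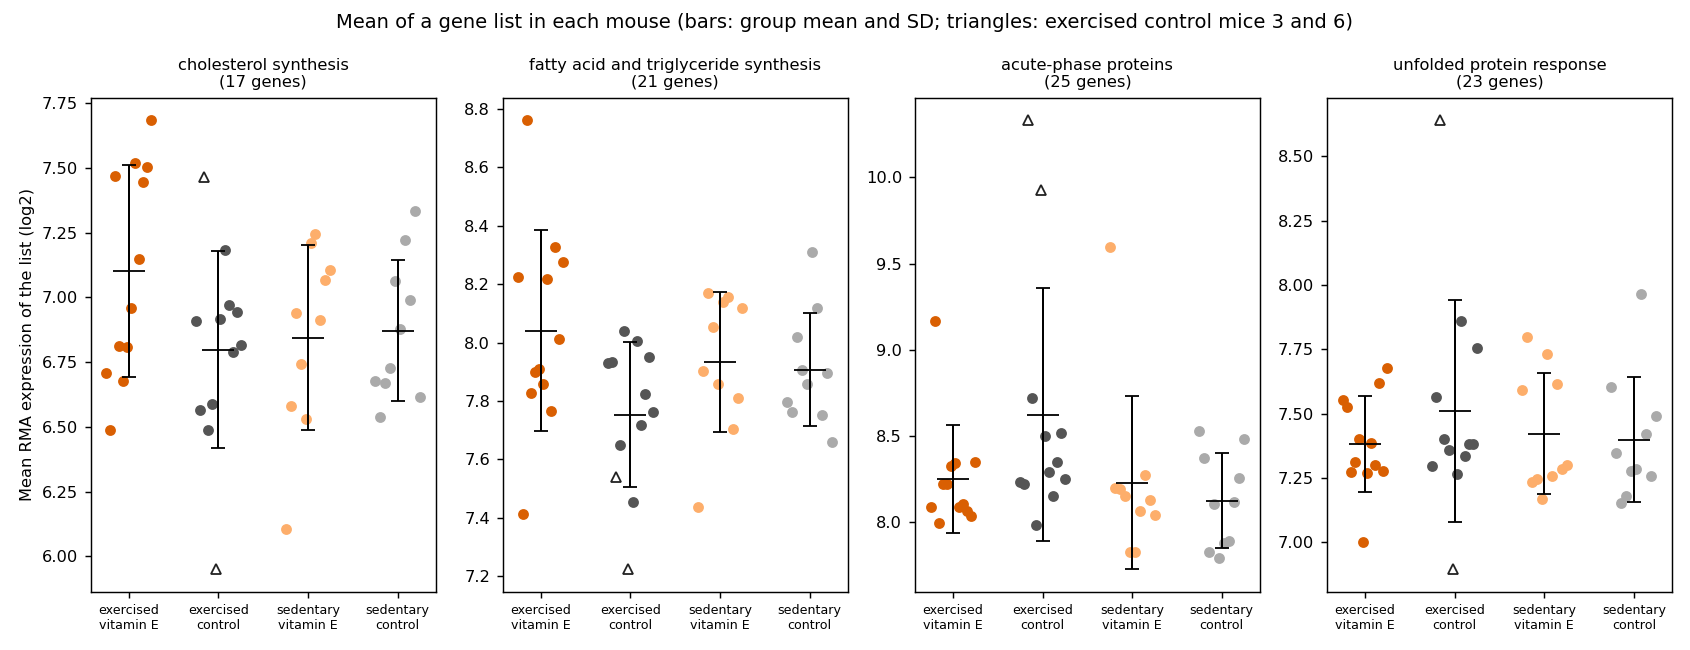
Mean RMA expression (log2) of 4 gene lists in each mouse, with exercised vitamin E, exercised control, sedentary vitamin E and sedentary control mice from left to right; bars are the group mean and SD and triangles are exercised control mice 3 and 6. In the fatty acid and triglyceride list 5 exercised vitamin E mice lie above every exercised control mouse, whereas in the acute-phase list exercised control mice 3 and 6 lie above all other exercised mice.

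Genes that move and degrade vitamin E showed no common direction. Of the 20 tested, 10 were above and 10 below 0, with a median of -0.01, and 3 were higher and 1 lower at an unadjusted p under 0.05. Over all genes 2.17% were higher and 3.28% lower by that rule. Cyp4f14, the mouse tocopherol ω-hydroxylase, lay between 7.60 and 8.10 (median 7.85) in exercised vitamin E mice, against 6.83 and 7.88 (median 7.53) in exercised control mice. All 12 exercised vitamin E mice lay above the control median and 4 above every control, a difference of 0.26 (SE 0.09, p = 0.00552). Of its relatives on the array, Cyp4f13 differed by 0.03 and Cyp4f15 by 0.01. Pltp, a phospholipid transfer protein that also carries tocopherol between lipoproteins, differed by 0.51 (p = 0.0108) and Cyp3a11, a drug-metabolising P450, by 0.33 (p = 0.0474), though Cyp3a11 only by 0.13 without exercised control mice 3 and 6. Lrp1, a remnant receptor, was lower, with a difference of -0.34 (p = 0.00723), or -0.17 without these 2 mice. Without them neither Cyp3a11 (p = 0.347) nor Lrp1 (p = 0.0767) passed.

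Ttpa, the liver's tocopherol transfer protein, ranged over 7.88 to 8.37 (median 8.14) in exercised vitamin E mice and over 7.94 to 8.41 (median 8.18) in exercised control mice. The 2 ranges nearly coincided, with a difference of -0.03 (p = 0.614). The lipoprotein receptor Scarb1 differed by -0.14, the cholesterol and tocopherol exporter Abca1 by -0.15 and the tocopherol-binding Sec14l2 by 0.11, none of which passed. Among the 10 genes of vitamin C synthesis and transport the median was 0.06, and Gulo, the last enzyme of ascorbate synthesis, which mice have and humans lack, differed by 0.08 (p = 0.267).

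Antioxidant genes were nearly level. The 34 targets of NRF2 and antioxidant enzymes, the transcripts that oxidative stress induces, had a median of 0.01, with 20 above and 14 below 0, and 1 passed. That was Srxn1, sulfiredoxin, which repairs oxidised peroxiredoxins, lower, with a difference of -0.31 (p = 0.0206), and of -0.31 without exercised control mice 3 and 6. Catalase, Cat, differed by 0.00, superoxide dismutase Sod1 by -0.07 and Nqo1, a classical NRF2 target, by 0.05 (p = 0.797). Outside this list Msrb2, a mitochondrial methionine sulfoxide reductase, was among the 15 higher genes, at 0.26. It ranged over 3.88 to 4.83 (median 4.29) in exercised vitamin E mice and over 3.67 to 4.38 (median 3.96) in exercised control mice, with 3 exercised vitamin E mice above all controls, a difference of 0.26 (SE 0.10, p = 0.0135). In vitamin A metabolism Rdh11 was the only one of 22 tested genes at an unadjusted p under 0.05, and the median was 0.01.

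Spag7, a protein with a nucleic acid-binding domain, had the smallest p of the 15 higher genes. It lay between 5.89 and 6.39 (median 6.14) in exercised vitamin E mice, against 5.71 and 6.03 (median 5.81) in exercised control mice. All 12 exercised vitamin E mice lay above the control median, and the difference was 0.30 (SE 0.08, p = 0.000358) or 1.23-fold. Exosc8 and Exosc2 both encode subunits of the exosome, the complex that degrades and trims RNA from its 3′ end. Exosc8 ranged over 4.51 to 5.39 (median 4.88) in exercised vitamin E mice and over 4.25 to 4.89 (median 4.56) in exercised control mice, a difference of 0.30 (SE 0.10, p = 0.00342). Exosc2 ranged over 3.66 to 4.76 (median 4.27) in exercised vitamin E mice and over 3.47 to 4.26 (median 3.92) in exercised control mice, a difference of 0.30 (SE 0.10, p = 0.00683). In each, 10 of 12 exercised vitamin E mice lay above the control median. The other 6 exosome subunits tested, looked up after these values were seen, were also above 0, but none of the 6 passed. They differed by 0.18 (p = 0.12) for Exosc9 and by 0.02 to 0.05 for Exosc1, Exosc3, Exosc5, Exosc7 and Exosc10. Without exercised control mice 3 and 6 this shared direction was lost. Exosc1 (-0.01), Exosc5 (-0.02) and Exosc10 (-0.04) then lay below 0. Exosc9 (0.073), Exosc3 (0.012) and Exosc7 (0.003) stayed above it.

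The rest of the 15 higher genes had no common function. Rnaseh2b, part of a nuclease that removes RNA from DNA hybrids, differed by 0.29 (p = 0.00841), Nedd1, which anchors microtubule nucleation at the centrosome, by 0.39 (p = 0.0137), and Pdzk1ip1, a small membrane protein that binds the scaffold PDZK1, by 0.49 (p = 0.0147). Hsd3b2, of the steroid dehydrogenase family whose members are similar in sequence and may share probes, differed by 0.40 (p = 0.0141), and its relative Hsd3b3 by 0.18 (p = 0.318). Tmem141, a membrane protein, differed by 0.35 (p = 0.0145) and 1700001C19Rik by 0.37 (p = 0.0129). Without exercised control mice 3 and 6 Hsd3b2 differed by 0.25 and Nedd1 by 0.25.

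Pdp2 was the metabolic gene with the smallest p among the 15 lower genes. It encodes a phosphatase that activates pyruvate dehydrogenase and so opens the way of pyruvate to oxidation or, in the fed liver, to lipid. It lay between 4.78 and 5.98 (median 5.44) in exercised vitamin E mice, against 5.27 and 6.53 (median 5.79) in exercised control mice. Of the exercised vitamin E mice 5 lay below every control, and the difference was -0.53 (SE 0.15, p = 0.00102) or 0.69-fold. Its relative Pdp1 differed by -0.07, and the opposing kinase Pdk4 by -0.50, with an unadjusted p of 0.187. Of the 26 tested genes of glucose metabolism 13 lay above and 13 below 0. Besides Pklr and Pdp2, fructokinase Khk was higher (0.17, p = 0.037) and Pkm, the pyruvate kinase of most tissues other than hepatocytes, was lower (-0.26, p = 0.0259), and neither passed without exercised control mice 3 and 6. Pck1, the key enzyme of gluconeogenesis, differed by -0.07 and G6pc, which releases glucose, by 0.16. In glycogen metabolism Pygl, liver glycogen phosphorylase, differed by 0.24 (p = 0.0326), which no longer passed without these 2 mice (0.09, p = 0.197), and Gsk3b, a kinase that inhibits glycogen synthase, by -0.20 (p = 0.028).

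Transcription regulators among the lower genes were Klf11, Ets2 and Zfp617. Klf11, a Krüppel-like factor of glucose and lipid metabolism, lay between 3.45 and 4.50 (median 3.83) in exercised vitamin E mice, against 3.38 and 4.70 (median 4.34) in exercised control mice. The ranges overlapped almost completely, but 11 of 12 exercised vitamin E mice lay below the control median, a difference of -0.42 (SE 0.14, p = 0.00489). Ets2, a growth factor-responsive transcription factor, lay between 5.78 and 6.66 (median 6.13) in exercised vitamin E mice, against 6.02 and 7.89 (median 6.48) in exercised control mice. The highest control, mouse 3, and controls 9 (6.81), 1 (6.76) and 8 (6.69) lay above all exercised vitamin E mice. The difference was -0.38 (SE 0.14, p = 0.00881), and it was -0.24 without exercised control mice 3 and 6. Zfp617, a zinc finger protein, differed by -0.33 (p = 0.00617). Fbxw7, the substrate receptor of a ubiquitin ligase that marks cyclin E, MYC and active SREBP for degradation, lay between 3.19 and 4.03 (median 3.71) in exercised vitamin E mice, against 3.54 and 4.48 (median 3.98) in exercised control mice. Of the exercised vitamin E mice 11 lay below the control median, a difference of -0.35 (SE 0.10, p = 0.000967).

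Creld1, Ncln and Pigl act in or near the endoplasmic reticulum. Creld1, a membrane protein with EGF-like repeats, lay between 4.02 and 4.98 (median 4.60) in exercised vitamin E mice, against 4.49 and 5.40 (median 5.00) in exercised control mice. None of the 12 exercised vitamin E mice lay above the control median, and 5 lay below every control, a difference of -0.42 (SE 0.12, p = 0.00097). Ncln, nicalin, part of a membrane protein complex of the endoplasmic reticulum, ranged over 4.00 to 4.97 (median 4.58) in exercised vitamin E mice and over 4.55 to 5.10 (median 4.93) in exercised control mice. Its difference was -0.33 (SE 0.10, p = 0.0024), with 5 exercised vitamin E mice below every control. Pigl, an enzyme of GPI anchor synthesis, differed by -0.30 (p = 0.00466). The 23 tested genes of the unfolded protein response, the chaperones and sensors of that compartment, had a median of -0.10, with 21 below 0 and none at an unadjusted p under 0.05. Their mean level lay between 7.00 and 7.68 in exercised vitamin E mice and between 6.89 and 8.64 in exercised control mice, where mouse 3 was highest, mouse 6 lowest and the highest of the others at 7.86. Without exercised control mice 3 and 6 the list median was -0.08, with 18 of its 23 genes below 0. Over all genes, with all mice, 54.2% lay below 0.

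Mgp and S100a6 are transcripts of cells other than hepatocytes. Mgp, a vitamin K-dependent inhibitor of calcification made by vascular smooth muscle and other mesenchymal cells, lay between 5.03 and 6.57 (median 5.80) in exercised vitamin E mice, against 6.12 and 7.17 (median 6.27) in exercised control mice. Here 9 of the 12 exercised vitamin E mice lay below every control, a difference of -0.56 (SE 0.18, p = 0.00411) or 0.68-fold, and -0.54 without exercised control mice 3 and 6. S100a6, a calcium-binding protein of mesothelial, biliary and mesenchymal cells, lay between 5.64 and 6.72 (median 5.93) in exercised vitamin E mice, against 5.82 and 7.33 (median 6.37) in exercised control mice. The ranges overlapped widely, with a difference of -0.40 (SE 0.15, p = 0.00963). Its level followed that of Crip1 across mice, with Pearson's r = 0.816 in exercised vitamin E mice and 0.76 in exercised control mice. It also followed the mesothelial marker Upk1b, with 0.772 and 0.667 (12 mice each). Other genes compared with it followed less evenly. In the same order r was 0.579 and 0.685 for Msln, 0.721 and 0.311 for Acta2, and 0.56 and 0.248 for Slpi. For Praf2 it was 0.352 and 0.537, for Tagln 0.115 and 0.505, and for Mgp 0.023 and 0.403. For Krt19 it was 0.085 and 0.204, for Krt7 -0.208 and 0.294, and for S100a11-ps -0.574 and 0.731. S100a11-ps, a pseudogene whose probes may also catch S100a11, differed by -0.48 (p = 0.000364), whereas S100a11 itself differed by -0.14 (p = 0.313).

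Markers of these cells did not share 1 direction. Of 16 stellate cell and fibroblast markers 10 were above and 6 below 0 (median 0.04), and Acta2, the smooth muscle actin of vessel walls and activated stellate cells, was lower, with a difference of -0.53 (p = 0.0141). Of 4 mesothelial markers Msln was lower (-0.45, p = 0.0293) and Upk1b, Upk3b and Krt8 did not pass, with a list median of -0.21. Without exercised control mice 3 and 6 Msln no longer passed (-0.40, p = 0.0649) and Krt8, a keratin that hepatocytes also make, was higher (0.21, p = 0.0423). The 3 tested cholangiocyte markers had a median of -0.20, with Krt7 lower (-0.31, p = 0.0316), which no longer passed without these 2 mice (-0.29, p = 0.0577). The mean level of the mesothelial markers, 4 of 6 tested, ranged over 3.57 to 4.62 in exercised vitamin E mice and over 3.68 to 4.72 in exercised control mice, that of the stellate markers over 4.29 to 4.89 and over 4.02 to 4.82, and that of the cholangiocyte markers, 3 of 10 tested, over 2.18 to 2.84 and over 2.38 to 2.97. The part of these cells in the lower values of Mgp and S100a6 was not tested. Hepatocyte markers were level, with a median of 0.01 over 9 genes, and the sinusoidal endothelial markers had a median of -0.02 over 13.

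The remaining lower genes were Praf2, a membrane protein of vesicle traffic (-0.55, p = 0.00246), Dhx38, a helicase of splicing (-0.34, p = 0.00701), Pde6d, a carrier of prenylated proteins (-0.28, p = 0.00777), and Slc36a4, an amino acid transporter (-0.35, p = 0.00982). For Slc36a4 the second, dimmer probe set of the gene differed by 0.09, so the 2 probe sets disagreed. Without exercised control mice 3 and 6, where 1.71% of probe sets were higher and 3.18% lower at an unadjusted p under 0.05, all 15 lower genes kept such a p, as did 13 of the 15 higher genes.

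**Figure D3:**
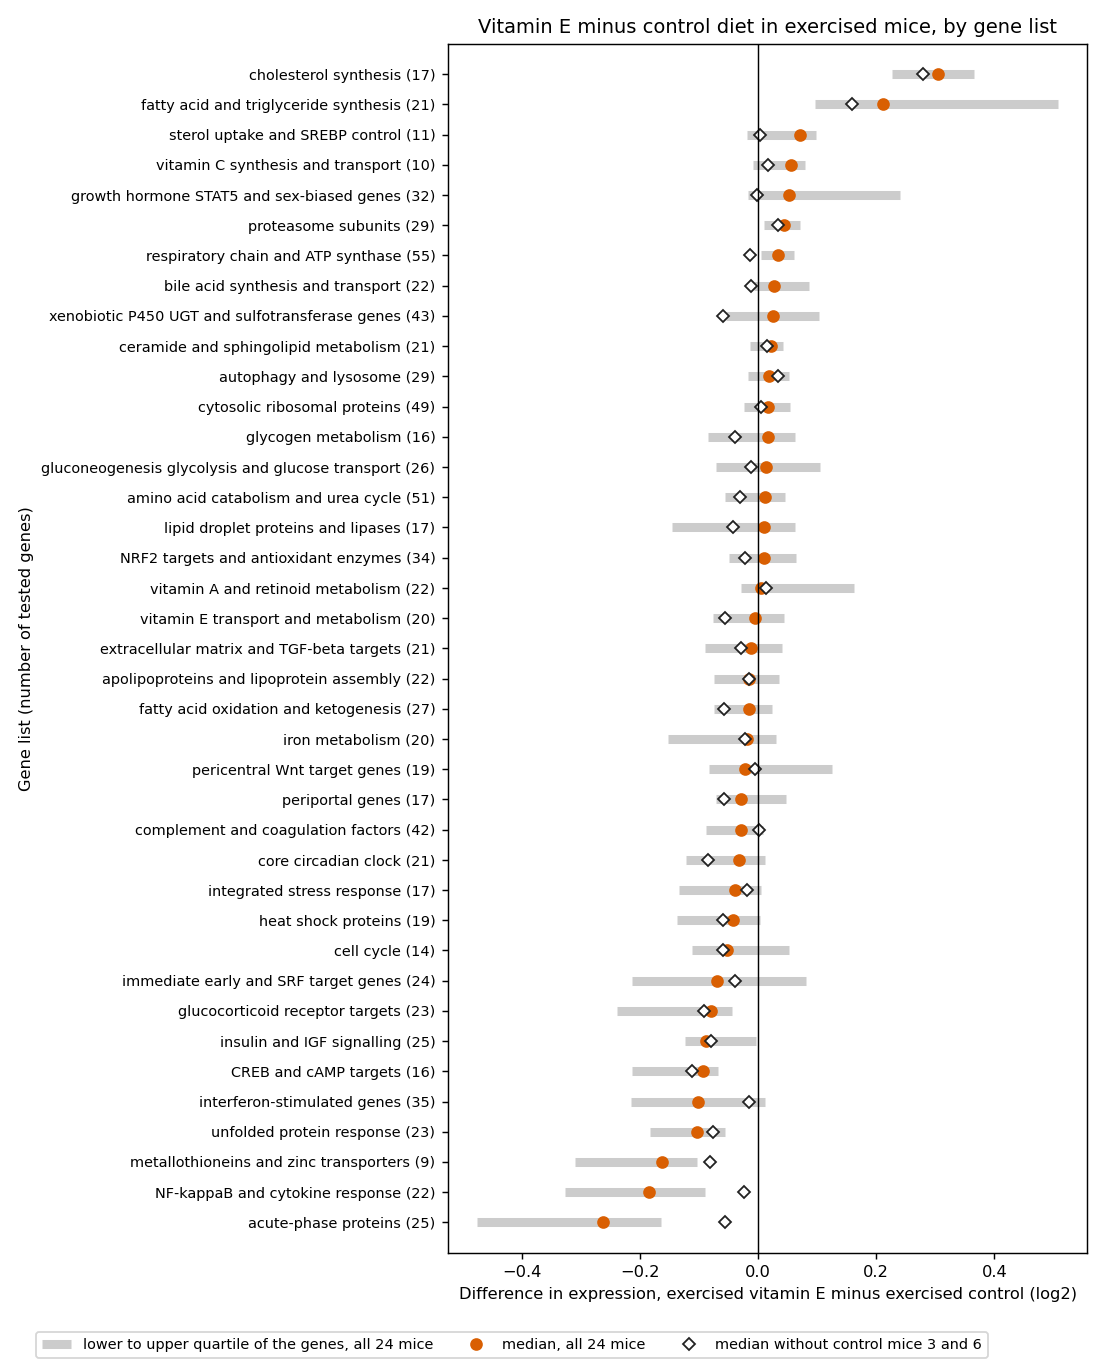
Median difference of the tested genes of each of 39 process lists, exercised vitamin E minus exercised control (log2, horizontal axis), with a grey bar from the lower to the upper quartile of the genes; filled points use all 24 mice and open diamonds leave out exercised control mice 3 and 6. Cholesterol synthesis (0.30) and fatty acid and triglyceride synthesis (0.21) lie highest with or without these 2 mice, and acute-phase proteins lie lowest (-0.26) with them but at -0.06 without them.

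Of the 39 process lists, 32 had a median within 0.1 of 0, and 36 did so without exercised control mice 3 and 6. The inflammatory lists had medians below 0, whose size depended on these 2 mice. The 25 acute-phase genes, which hepatocytes make in response to cytokines, were all below 0 with a median of -0.26, and 4 passed (3.28% of all genes were lower by that rule), namely Crp (-0.19, p = 0.00599), Serpina3n (-0.31, p = 0.0106), Itih4 (-0.21, p = 0.0309) and Lbp, the carrier of bacterial lipopolysaccharide (-0.50, p = 0.0335). Their mean level was 7.99 to 9.17 in exercised vitamin E mice, against 10.33 in exercised control mouse 3, 9.93 in mouse 6 and 7.98 to 8.72 in the other exercised control mice. Without mice 3 and 6 the median was -0.06, 5 genes lay above 0 and Crp alone passed (-0.13). The 22 NF-κB and cytokine genes had a median of -0.18, and -0.02 without the 2 mice, and the 35 interferon-stimulated genes -0.10 and -0.01. Icam1, a leukocyte adhesion molecule, stood out among them, lower, with a difference of -0.68 (p = 0.00684) and of -0.39 without the 2 mice. Of the 35 interferon-stimulated genes 6 were lower and 1 higher at an unadjusted p under 0.05. Without the 2 mice 2 were lower and 1 higher. Neutrophil markers, of which 3 of 13 were tested, were near the floor of the array in most mice. Their mean was 1.49 to 3.32 in exercised vitamin E mice, against 4.98 in exercised control mouse 3, 5.43 in mouse 6 and 1.43 to 2.64 in the other controls. The median difference of 14 Kupffer cell and macrophage markers was -0.09, and 0.13 without the 2 mice. Their mean level ranged over 3.89 to 5.60 in exercised vitamin E mice and over 4.06 to 6.04 in exercised control mice. Exercised vitamin E mouse 2 gave the upper end of its group for the acute-phase (9.17), neutrophil (3.32) and macrophage (5.60) means. The next mice of that group were at 8.35, 2.915 and 4.64. Mouse 2 was kept when the 2 control mice were left out, and no fit left out all of them together. The medians without the 2 mice thus reflect an exclusion from 1 group only. The part of neutrophils and macrophages in the acute-phase values was not tested.

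Other lists kept their direction without exercised control mice 3 and 6 but held few or no genes that passed. The 9 metallothionein and zinc transporter genes were all below 0 (median -0.16, and -0.08 without the 2 mice), with Mt1 at -0.32 (p = 0.307), Mt2 at -0.48 (p = 0.283) and the zinc importer Slc39a14 at -0.31 (p = 0.0254), the only one that passed, which it no longer did without the 2 mice (-0.14, p = 0.192). Of 16 targets of CREB, which glucagon and catecholamines activate through cAMP, 14 were below 0 (median -0.09, with 0 passing), and 16 of 16 without the 2 mice (-0.11). The orphan receptor Nr4a1, an immediate CREB target, ranged over 2.83 to 6.58 (median 3.97) in exercised vitamin E mice and over 2.39 to 6.99 (median 4.59) in exercised control mice, and its difference of -0.43 (p = 0.301) did not pass. Of 23 glucocorticoid receptor targets 20 were below 0 (median -0.08), and of 25 genes of insulin and IGF signalling 19 (median -0.09). Among 24 immediate early genes Maff and Fosl2, both partners of basic leucine zipper factors, were lower (Maff -0.45, p = 0.0219, and Fosl2 -0.41, p = 0.0498), of which Fosl2 no longer passed without the 2 mice (-0.40, p = 0.0726).

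Fatty acid oxidation showed small differences. Of its 27 genes 17 were below 0 (median -0.02), and 25 without exercised control mice 3 and 6 (-0.06). Cpt2, of mitochondrial fatty acid import, alone passed (-0.18, p = 0.00643). Among 17 lipid droplet proteins and lipases Plin4, a droplet coat protein, was lower (-0.37, p = 0.0352), which no longer passed without these 2 mice (-0.34, p = 0.0685), and Pnpla3 higher. Iron genes held 4 of 20 that passed, with Hamp, the hormone hepcidin that limits iron uptake, at -0.17 (p = 0.0114), Slc39a14 and the reductase Steap2 lower (-0.23) and the iron regulatory protein Aco1 higher (0.12, p = 0.0148). Without the 2 mice only Hamp of the 4 passed (-0.16, p = 0.0173). With all mice, 2.17% of all genes were higher and 3.28% lower at an unadjusted p under 0.05. Cers6, a ceramide synthase, was lower (-0.53, p = 0.00309) while the 21 genes of its list had a median of 0.02. Tyms, which makes thymidylate, was higher (0.26, p = 0.0105) among 14 cell cycle genes with a median of -0.05. The respiratory chain (55 genes, median 0.03), cytosolic ribosomal proteins (49 genes, 0.02), proteasome subunits (29 genes, 0.04), bile acid genes (22 genes, 0.03) and the circadian clock (21 genes, -0.03) were close to level.

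The animal numbers in the labels began with 24 or 27, and each exercised group held 6 mice of each series, so that the diets could be compared within each series. What the number series stands for is not given in the sources used here. Exercised control mice 3 and 6 both belonged to series 24. In series 24, 850 probe sets (4.59%) had an unadjusted p under 0.05, and in series 27, 870 (4.7%). Only 58 had it in both, which was 6.82% of the first list and 6.67% of the second, 46 of them with the same sign and 12 with opposite signs. Across all 18522 probe sets the 2 sets of differences had a Pearson's r of 0.0756, across probe sets that are not independent of each other. The 46 included Acss2 (0.66 in series 24 and 0.58 in series 27), Cyp4f14 (0.29 and 0.22), Exosc8 (0.31 and 0.29), Spag7 (0.35 and 0.26), Tm7sf2 (0.41 and 0.20) and Pdp2 (-0.64 and -0.43). They also included 3 higher genes that missed the naming rule and were picked from the 46 after their values were seen. These were Pls1, which bundles actin (0.47 and 0.63), the carboxylesterase Ces2a (0.39 and 0.23) and the histone variant gene H2az2 (0.40 and 0.30). Most of the 46 were lower, however, among them Adar (-0.34 and -0.51), Trim21 (-0.59 and -0.48), Serpina3n (-0.43 and -0.19), Nav2 (-0.47 and -0.45) and Ankrd2 (-1.16 and -0.52). Many of the 46 had no symbol, and some of these held identical values, so the 46 are not all separate transcripts.

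Pls1 lay between 1.49 and 2.90 (median 2.21) in exercised vitamin E mice, against 0.85 and 2.01 (median 1.70) in exercised control mice, low on the scale, with a difference of 0.55 (SE 0.13, p = 0.000118). Ces2a, which hydrolyses esters of lipids and drugs, ranged over 8.12 to 8.82 (median 8.56) in exercised vitamin E mice and over 7.38 to 8.55 (median 8.33) in exercised control mice. It differed by 0.31 (SE 0.10, p = 0.00528) after the run and by 0.29 in sedentary mice. Other named genes differed mainly in 1 series. S100a6 differed by -0.76 in series 24 and -0.04 in series 27, Praf2 by -0.91 and -0.19, and Dhx38 by -0.65 and -0.02. Rdh11 differed by 0.36 in series 24 and 0.87 in series 27. Among exercised controls Praf2 was highest in mice 3 and 6 of series 24 (5.31 and 5.15) and S100a6 in mouse 6 (7.33). The Dhx38 values of mice 3 and 6 (4.58 and 4.39) lay within those of the other controls. The median of the cholesterol synthesis genes was 0.17 in series 24 and 0.43 in series 27, and that of the fatty acid and triglyceride genes 0.22 and 0.21. The acute-phase median was -0.43 in series 24, which held exercised control mice 3 and 6, and -0.15 in series 27. Whether the diet difference itself differs between the series was not tested, and the series were not compared without these mice.

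**Figure D4:**
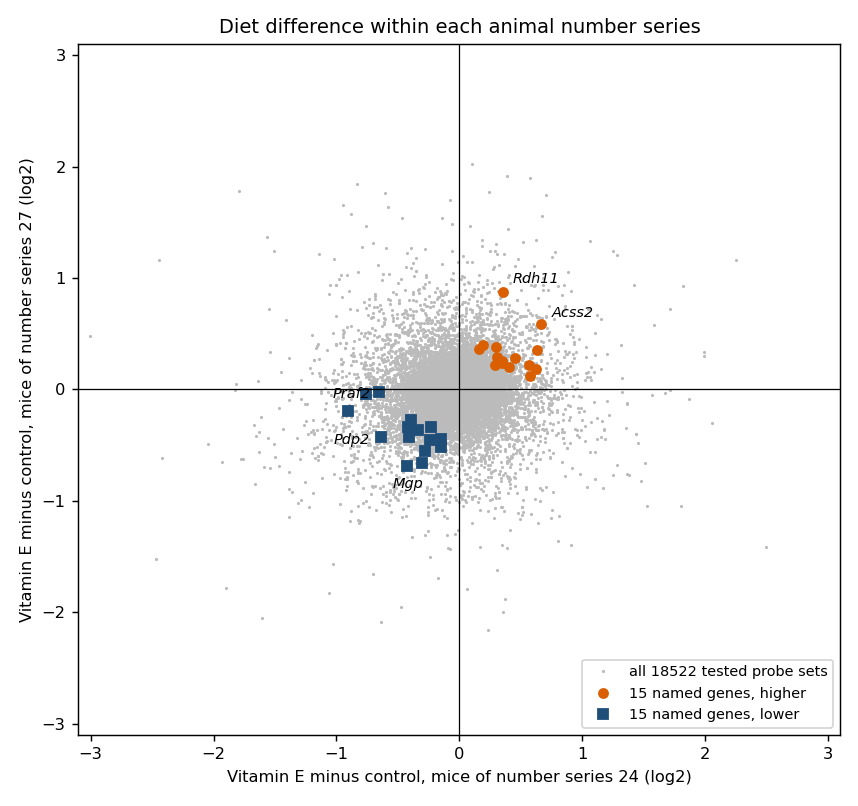
Difference of each probe set, exercised vitamin E minus exercised control (log2), in mice of number series 24 (horizontal axis) and number series 27 (vertical axis), with all 18522 tested probe sets in grey and the 30 named genes as coloured symbols. The grey cloud has no slope (r = 0.0756), and the named genes, which were chosen on all 24 mice together, lie on the same side of 0 in both series.

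In sedentary mice 298 genes (2.73%) were higher and 149 (1.36%) lower at an unadjusted p under 0.05, and the cholesterol synthesis median was -0.02 with 6 of 17 genes above 0, and the fatty acid median 0.03. None of the 30 named genes had an unadjusted sedentary p under 0.05. Of the 15 higher ones 8 were above and 7 below 0 in sedentary mice, with a median of 0.05, and of the 15 lower ones 9 were above and 6 below 0, with a median of 0.04. Pltp differed by 0.51 after the run and by 0.55 at rest. Sedentary vitamin E mouse 1 had the highest acute-phase mean of the sedentary mice (9.59). It also had their lowest cholesterol synthesis (6.11), fatty acid and triglyceride (7.44) and Rdh11 (4.33) values. No fit left this mouse out, so the sedentary differences, and the interaction described next, are not given without it.

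The difference between the 2 diet effects was tested as an interaction. No probe set passed an adjusted p of 0.05, and 555 genes (5.08%) had an unadjusted p under 0.05. Of the named genes 6 of the higher and 11 of the lower were among them, with a smallest adjusted p of 0.771, but the exercised contrast that chose these genes is part of that test. The interaction was 0.81 (p = 0.00213) for Rdh11, with a sedentary difference of -0.19, -0.72 (p = 0.00259) for Pdp2, with 0.18, and -0.67 (p = 0.00259) for Klf11, with 0.25. For Acss2 it was 0.45 (p = 0.11), with 0.17, and for Cyp4f14 0.14 (p = 0.298), with 0.12, so that neither was shown to differ between exercised and sedentary mice.

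**Figure D5:**
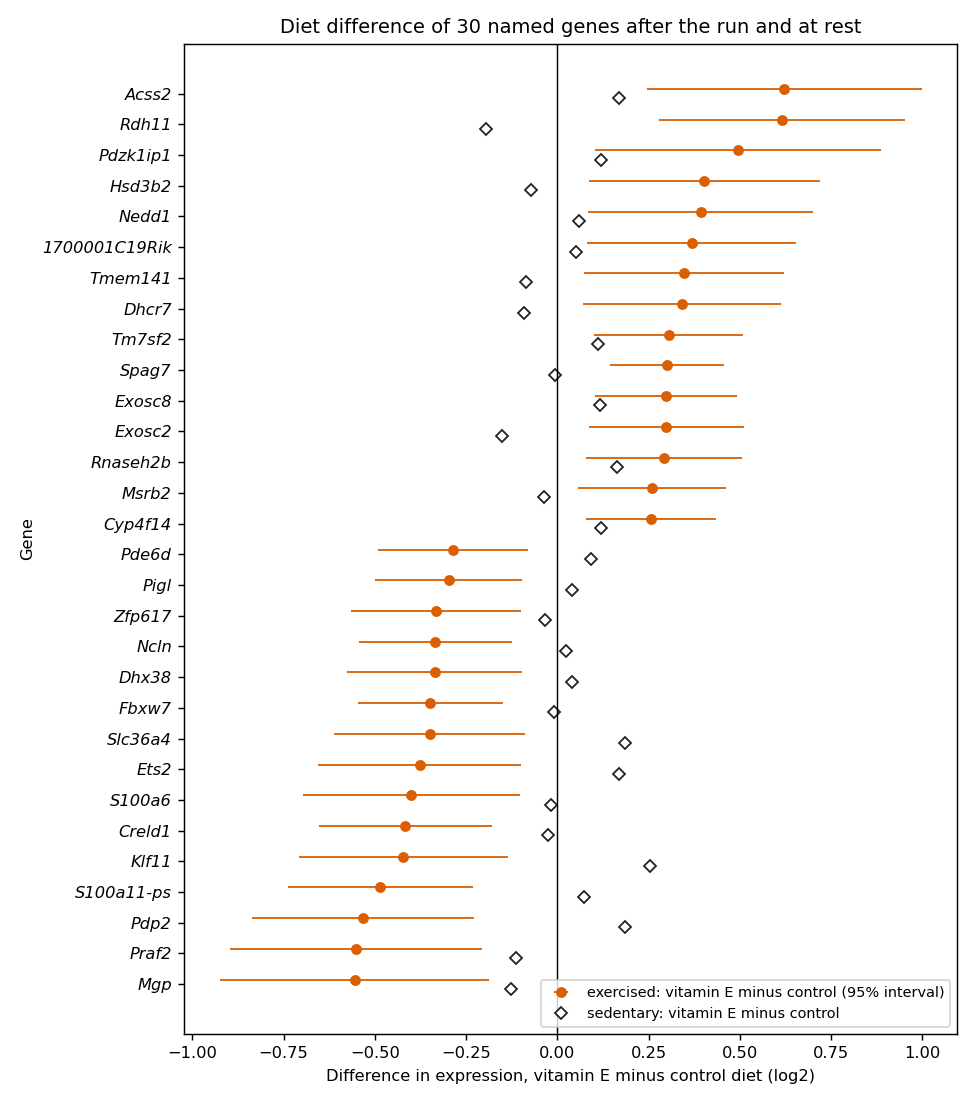
Difference between vitamin E and control diet (log2, horizontal axis) of the 30 named genes, as filled points with the 95% interval in exercised mice and as open diamonds in sedentary mice. The sedentary values lie between -0.19 and 0.25, on both sides of 0 for the higher and for the lower genes.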

How the data were processed

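Each of 44 Affymetrix Mouse Gene 2.1 ST arrays carried the liver RNA of 1 mouse. The authors ran RMA in Affymetrix Expression Console, which corrects background, quantile-normalizes and summarises probes, and deposited log2 values for 41345 probe sets. These were used without further normalization. The array image data were not used here.

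Gene symbols came from the platform annotation. Probe sets with a mean linear value above 4 in at least 1 of the 4 groups were kept, as in the study's methods, which left 18522, of which 11565 had exactly 1 symbol (10921 genes), 878 several and 6079 none. A gene with several probe sets was represented by the one with the highest mean.

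All 4 groups entered 1 limma fit (version 3.58.1, R 4.3.3) with a coefficient per group, and p-values were adjusted by Benjamini-Hochberg over all kept probe sets. The methods' threshold was an unadjusted p under 0.05 with a fold of group medians above 1.2. Named genes were the 15 per direction with the smallest p among probe sets with 1 symbol that passed this threshold, had a mean log2 value above 4 in an exercised group and are not named in the study's text, plus up to 5 members of each list by p and members of textbook rank. The mice, gene lists and markers were chosen with earlier results of these data known. Lists are described by counts and medians, and were not tested. The fit was tested on simulated data. No probe set of the erythroid or mitochondrially encoded lists was tested, and a few genes of the lipid and inflammation lists are not reported here. Alternatives covered the filter, scaling, variance model, array weights, number series, replicate number, probe choice and left-out mice. The precision is limited by 12 mice per exercised group. Promoters came from RefSeq on GRCm38.p6, and figures were drawn with Python 3.11.15.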

Additional observations from a re-analysis of the deposited data

Results flagged for a closer look

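In 60 groups of gene values checked for a single far sample, 1 was flagged, under a rule where chance gives about 1 in 20. The flag left out far values of exercised control mouse 3 in Ets2, 1700001C19Rik and Hsd3b2. The count of 1 therefore cannot be compared with chance, and does not show how rare single far mice were. Tm7sf2 in sedentary vitamin E mouse 1 was 7.60, with the nearest of the other 9 mice at 7.94, a gap of 0.499 of the range of that group. The exercised values of Tm7sf2 do not include this mouse. Exercised control mouse 3 was not flagged but also lay far from its group in some named genes. Its Ets2 was 7.89, with the other exercised controls between 6.02 and 6.81. Its 1700001C19Rik was 2.60, with the others between 3.55 and 4.415. Its Hsd3b2 was 3.535, with the others between 4.65 and 5.74.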

How the results depend on the processing

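Counts of called probe sets moved with the filter. With no filter (41345 probe sets) 1143 were higher and 1071 lower at an unadjusted p under 0.05, and 542 and 623 at the methods' threshold. With a mean log2 value above 5 required (7332) the counts were 183 and 227, and 46 and 61. With only probe sets of 1 symbol (11565) 376 were lower, and 108 and 198 passed the methods' threshold. These settings test more or fewer probe sets. Quantile normalization gave 530 higher and 513 lower, or 272 and 311 at the methods' threshold, and median centring 328 and 675. Leaving out each mouse in turn gave 332 to 468 higher and 566 to 731 lower, and 193 to 244 and 347 to 432 at the methods' threshold. The lowest count of higher probe sets came without exercised control mouse 6 and the highest without exercised vitamin E mouse 2. Without exercised control mice 3 and 6 together 317 were higher and 589 lower, of which 228 and 421 were shared with all mice. No probe set passed an adjusted p of 0.05 in any of these fits, for the diet difference (0 to 0 over the mice left out) or for the interaction (0 to 0). With the replicate number as a block (replicate block) 423 were higher and 735 lower, 238 and 451 passed the methods' threshold, and 0 had an adjusted p under 0.05. The same-numbered mice of the 2 groups correlated by 0.021 to 0.087 in 12 pairs, of which 0 exceeded 0.1, so the numbers were not taken to pair them.

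Of the 30 named genes none changed direction under the alternatives. These genes were chosen on the main fit, which shares mice with every alternative, so their kept direction is not independent evidence. An unadjusted p of 0.05 was missed by 16 in number series 24 alone, 11 in series 27 alone, 2 without exercised control mice 3 and 6, and 1 with the replicate block. The cause was not tested, and the fits of 1 series or without the 2 mice also held fewer mice. The 95% interval of a difference reached a median of 0.27 to either side.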

Other observations

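By kind of transcript, the 358 tested long non-coding RNA probe sets held 4.19% higher and 2.23% lower at an unadjusted p under 0.05 in exercised vitamin E mice, against 2.06% and 3.14% of 10894 protein-coding ones and 1.96% and 4.08% of 6079 probe sets without a symbol. Among the dimmest probe sets, with a mean log2 value up to 2, 3.07% of 2374 were higher and 4.84% lower, against 2.53% and 2.96% of the 1657 above 8.

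The mean levels of the cholesterol synthesis and the fatty acid and triglyceride synthesis genes followed each other across exercised vitamin E mice, with Pearson's r = 0.68 (n = 12), against 0.33 in exercised control mice and 0.06 in the 10 of them without mice 3 and 6. The fatty acid and triglyceride genes ran opposite to the acute-phase genes in both groups, with r = -0.69 in exercised vitamin E mice, -0.73 in exercised control mice and -0.54 without mice 3 and 6. For cholesterol synthesis against acute-phase genes r was -0.55 in exercised vitamin E mice and -0.02 in exercised control mice. These are descriptions over mice of 1 group each, and the differences between the groups were not tested. Exercised vitamin E mouse 2 had the highest acute-phase mean of its group (9.17). It also had that group's lowest cholesterol synthesis (6.49) and fatty acid and triglyceride (7.41) means. No r was computed without it, so mice were left out of the control group only.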
